A study of Mus musculus with 6 samples.

Results

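The circadian clock genes described here were 10 transcripts of the mouse retina: the activators Arntl and Clock, the repressors Per1, Per2, Per3, Cry1 and Cry2, the nuclear receptors Nr1d1 and Nr1d2, and the output factor Dbp. They were chosen by symbol, each matched a single row, and together they made up 10 of the 19401 genes in the files. All 10 passed the count filter (10 counts in at least 3 libraries) that 15537 genes passed. RNA was sequenced from 9-month-old 5XFAD mice, hemizygous transgenic animals on the B6SJL background that carry mutant human amyloid precursor protein and presenilin 1 and serve as a model of Alzheimer's disease. The EFV-treated mice received efavirenz (EFV), an anti-HIV drug, in drinking water from 3 to 9 months of age at 0.08 mg/kg body weight as labelled (the methods state a slightly higher daily dose), and the control mice received water with the same detergent vehicle. There were 3 libraries a group, made from pooled retinas of 5 to 6 mice each and described in the methods as 1 retina with its retinal pigment epithelium (RPE) from each male. Both groups carried the transgenes, so no library shows the clock genes of a wild type retina. The question asked of these genes was whether EFV shifted them and whether the pools were collected at different phases of the clock. The mice were kept on a cycle of light and dark, and the hour of euthanasia is not given in the sources used here.

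The molecular clock is a transcriptional feedback loop. ARNTL (also called BMAL1) and CLOCK bind as a pair to E-boxes and activate the Per, Cry, Nr1d1, Nr1d2 and Dbp genes, PER and CRY proteins then repress that pair, and NR1D1 and NR1D2 repress Arntl through ROR elements, so that Arntl RNA peaks in antiphase to Nr1d1, Dbp and the Per genes. The retina holds a clock of its own that is reset by light and dopamine and drives daily rhythms in photoreceptor and inner retinal cells.

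Matches to the motifs of these loops near the members' annotated starts are shown here because the motifs are those the clock factors are known to bind. The stretches come from the RefSeq windows of build GRCm38.p6, which run from 250 bases before to 50 bases after an annotated start and were found for 9 of the 10 genes. Windows for Per2 were not used here. The starts are those of RefSeq transcripts, and for Arntl, Per1 and Per3 they lie inside the span of the gene given with its values. The E-box was searched as CACGTG, the D-box bound by DBP as TTATGTAA, the ROR element core as TAGGTCA and the cAMP response element as TGACGTCA, all on both strands. Capitals mark the motif, and each stretch is written 5′ to 3′ on the strand of its gene.
Per1 E-box, 166 bases before the start, chr11:69098749-69098828, plus strand: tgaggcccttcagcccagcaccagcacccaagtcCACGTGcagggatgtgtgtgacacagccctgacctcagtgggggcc
Cry1 E-box, 60 bases before the start, chr10:85185081-85185154, minus strand: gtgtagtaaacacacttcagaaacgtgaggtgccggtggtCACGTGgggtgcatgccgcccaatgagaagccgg
Per3 D-boxes, 205 and 158 bases before the start, chr4:151044796-151044886, minus strand: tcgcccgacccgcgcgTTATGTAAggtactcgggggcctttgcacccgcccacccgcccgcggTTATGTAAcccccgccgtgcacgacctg
Arntl ROR element core, 30 bases after the start and within an annotated exon, chr7:113207530-113207559, plus strand: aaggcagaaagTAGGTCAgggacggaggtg
These 2 E-boxes, 1 pair of D-boxes and 1 ROR core were the matches in the 13 windows of the 9 members, and the cAMP response element had none. For 10 of the 13 windows, the last 50 bases were found in an annotated transcript of the gene. Over all 32851 windows, the E-box occurred in 7.15%, the D-box in 0.938%, the ROR core in 2.61% and the cAMP response element in 1.79%. A match is a description of the letters only, and a window without one says nothing about sites farther from the start.

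The libraries held 23455167 to 24590278 counts assigned to genes, and each member rested on 646 to 7869 counts per library. Markers of rods, cones, bipolar, amacrine, ganglion and Müller cells were all detected in every library, and the summed level of each of these lists differed by at most 1.18-fold between libraries. The endothelial and microglia lists, lower in level, differed by 1.33-fold and 1.26-fold. In 3 libraries, other genes stood apart. Control library 3 had a summed level of 5 lens markers of 154.67 FPKM (fragments scaled to gene length and library total) against 3.47 to 6.94 in the others, and immediate-early genes of 231.5 FPKM against 97.89 to 129.95. Control library 2 had the lowest level of 6 RPE markers, 21.49 FPKM against 42.16 to 53.11. EFV library 3 had a summed level of 4 Y-linked genes (Ddx3y, Eif2s3y, Kdm5d and Uty) of 25.21 FPKM against 51.87 to 69.84 in the others, although the methods describe all pools as male, and EFV library 1 had the highest. In bulk retina, fewer cells of a type and less RNA per cell cannot be told apart.

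Nr1d1 and Dbp were the most abundant clock transcripts of these retinas and Per2 the least. On the FPKM scale, which corrects for length, the means over 6 libraries were 114 for Nr1d1 and 109 for Dbp, 48.7 for Nr1d2, 38.0 for Arntl, 29.9 for Cry2, 21.998 for Per1, 19.5 for Per3, 18.9 for Cry1, 14.6 for Clock and 5.03 for Per2. Nr1d1 exceeded Dbp in 3 of 6 libraries, so their order was not settled. The ranges of Per1 and Per3 and of Per3 and Cry1 overlapped as well, with the first above the second in 5 and in 4 of 6 libraries. The ranges of the other neighbours in this order did not overlap. Whether the libraries kept strand is not stated, and the annotated exons of Dbp share 539 bases (18.0% of their length) with Sphk2 on the other strand, while those of Nr1d1 share 263 bases (8.55%) with Thra. Sphk2 was measured at 5.35 to 6.55 FPKM, far under Dbp, whereas Thra was measured at 108.36 to 113.91 FPKM, close to Nr1d1.

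**Figure D1:**
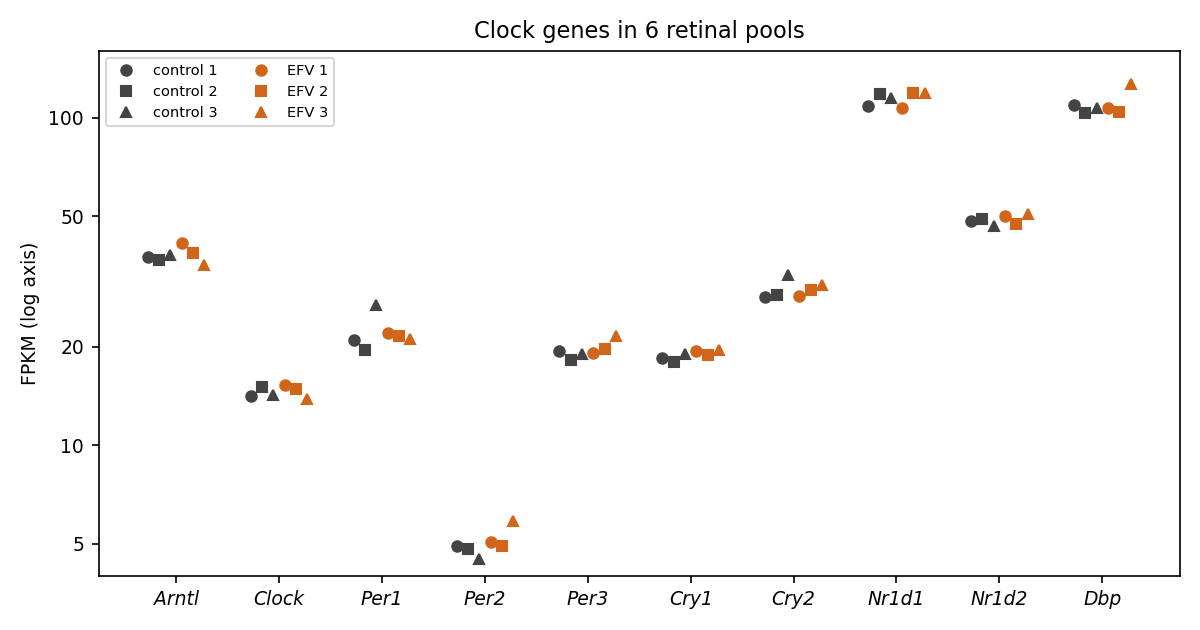
FPKM on a log axis for the 10 clock genes in each library, with control libraries in grey, EFV libraries in orange and a marker shape for each library number. Nr1d1 and Dbp sat near 100 FPKM and Per2 near 5, and for 9 of the 10 genes the grey and orange points overlapped.

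No change of the clock genes was detected between EFV-treated and control mice. In the quasi-likelihood test of edgeR, 0 of 10 had a Benjamini-Hochberg adjusted p of 0.05 or less, against 0.0% of all genes tested, and the lowest adjusted p of a member was 0.999. At the limits stated in the study's methods (unadjusted p of 0.05 and a change of 7% or more), 0 of 10 were called against 3.01% of all genes. Without adjustment, 0 of 10 had a p of 0.05 or less by edgeR, by DESeq2 or by limma, and the lowest was 0.0781 for Per2 by edgeR. For 1 of 10 genes the 3 EFV libraries lay on one side of the 3 controls, and over all genes this share was 8.14%. The log2 fold changes ran from -0.07 to 0.14 around a median of 0.03, which was 0.00 over all genes, and 6 were above zero, 3 below and Clock at 0.00. With 3 libraries a group the smallest p that exact permutation allows is 0.1, and the p-values measure only the spread between these pools.

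**Figure D2:**
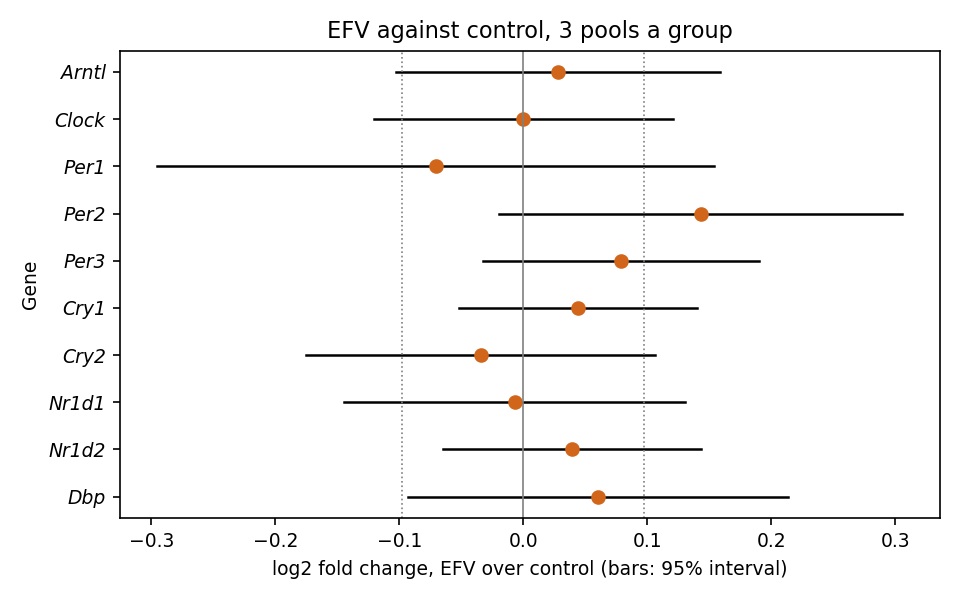
Log2 fold change of EFV over control for each clock gene, as points, with 95% intervals of the edgeR fit as bars (n = 3 pools a group); dotted lines mark a change of 7% in either direction. Every interval crosses zero, and that of Per1 is the widest.

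Missing the threshold does not show that the levels were the same, so the intervals are given. Across the 10 genes the 95% intervals of the fold change reached down to 0.815 for Per1 and up to 1.24 for Per2. The narrowest, for Cry1, ran from 0.965 to 1.10. Shifts beyond the outer bounds lay outside all 10 intervals, and shifts within a gene's own interval were not resolved by these pools.

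The activators Arntl and Clock carry the DNA-binding arm of the loop. Arntl (Entrez 11865, chr7:113178471-113314126) was at 37.5, 36.7 and 38.1 FPKM in control libraries 1 to 3 and at 41.6, 38.7 and 35.5 in EFV libraries 1 to 3. The EFV pools held both the highest and the lowest Arntl value, and the controls lay between them. The log2 fold change was 0.03 ± 0.06 (SE; 95% interval -0.10 to 0.16; edgeR, adjusted p = 0.999). Clock (Entrez 12753, chr5:76209868-76305603) was at 14.1, 15.0 and 14.3 FPKM in control and at 15.3, 14.8 and 13.9 in EFV libraries. Its group means, 14.5 ± 0.490 and 14.7 ± 0.737 FPKM (SD, n = 3), overlapped, and EFV library 3 was again the lowest. The difference between groups for Clock was 0.00 ± 0.05 on the log2 scale.

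The Per genes encode the rhythmic partners of the repressor complex, and Per1 also responds rapidly to light and to neuronal activity. Per1 (Entrez 18626, chr11:69095108-69109965) was at 21.0, 19.5 and 26.8 FPKM in control and at 22.1, 21.6 and 21.1 in EFV libraries. Control library 3 stood 27.8% above the mean of the other 5, and the rest lay within a narrow band. This library also had the highest level of 12 of the 13 immediate-early genes tested and of the lens markers, and the part of either in the Per1 value was not tested. The log2 fold change of Per1 was -0.07 ± 0.10 (95% interval -0.295 to 0.154; edgeR, adjusted p = 0.999), and it was 0.075 without control library 3.

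Per2 (Entrez 18627, chr1:91415977-91459351) was the only member whose groups did not overlap. It was at 4.92, 4.84 and 4.51 FPKM in control and at 5.08, 4.93 and 5.87 in EFV libraries. The gap between the groups was small, since the lowest EFV pool and the highest control pool were at 4.93 and 4.92 FPKM, and EFV library 3 stood 17.6% above the mean of the other 5. Its log2 fold change was 0.14 ± 0.07 (95% interval -0.02 to 0.31; edgeR, adjusted p = 0.999), and 1 gene in 10 without overlap is near the background share. Without EFV library 3 the log2 fold change of Per2 was the lowest of those leaving out 1 library, 0.08.

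Per3 (Entrez 18628, chr4:150997018-151044707), whose upstream stretch holds the pair of D-boxes printed above, was at 19.4, 18.2 and 18.9 FPKM in control and at 19.2, 19.7 and 21.6 in EFV libraries. EFV library 3 was the highest, 10.6% above the mean of the others, and EFV library 1 lay inside the control range. The log2 fold change was 0.08 ± 0.05 (95% interval -0.03 to 0.19; edgeR, adjusted p = 0.999). When EFV library 1 was left out it was 0.117 and passed the unadjusted limits of the study.

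The cryptochromes are the repressor subunits that contact CLOCK and ARNTL directly. Cry1 (Entrez 12952, chr10:85131700-85185054), which carries an E-box close to its start, was at 18.5, 18.0 and 19.01 FPKM in control and at 19.5, 18.8 and 19.6 in EFV libraries. It was the steadiest member, with a highest pool only 1.06 times the lowest after scaling. Cry2 (Entrez 12953, chr2:92403646-92434085) was at 28.4, 28.8 and 33.0 FPKM in control and at 28.6, 29.7 and 30.8 in EFV libraries. As for Per1, the highest value was in control library 3, 13.4% above the mean of the other 5. The log2 fold changes were 0.04 ± 0.04 for Cry1 and -0.03 ± 0.06 for Cry2 (edgeR, adjusted p = 0.999 for both), and Cry2 was at 0.036 without control library 3.

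NR1D1 and NR1D2, also called REV-ERBα and REV-ERBβ, are haem-binding repressors that form the second loop. Nr1d1 (Entrez 217166, chr11:98767932-98775377) was at 109, 118 and 115 FPKM in control and at 107, 119 and 119 in EFV libraries. The low values came from library 1 of each group, so the spread ran within the groups and not between them. Nr1d2 (Entrez 353187, chr14:18204056-18239106) was at 48.3, 48.9 and 46.5 FPKM in control and at 50.2, 47.3 and 50.7 in EFV libraries, and the groups overlapped. The log2 fold changes were -0.01 ± 0.06 for Nr1d1 and 0.04 ± 0.05 for Nr1d2 (edgeR, adjusted p = 0.999 for both).

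Dbp encodes a PAR bZIP factor that passes the rhythm on to D-box genes and has among the widest daily swings of clock transcripts in most tissues. Dbp (Entrez 13170, chr7:45705100-45710203) was at 109, 104 and 107 FPKM in control and at 107, 104 and 126 in EFV libraries. A single pool, EFV library 3, stood 17.0% above the mean of the other 5, and those 5 lay between 104 and 109 FPKM. The log2 fold change was 0.06 ± 0.07 (95% interval -0.09 to 0.21; edgeR, adjusted p = 0.999), and it was -0.025 without EFV library 3.

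The largest deviations belonged to single libraries. EFV library 3 had the highest value of 5 of the 10 genes and the lowest of 2, and its median absolute deviation from the mean of 6 was 0.08 on the log2 scale of counts scaled to library totals (CPM), against 0.03 to 0.04 in the other libraries. In this pool Dbp, Per2 and Per3 were high, whereas Arntl and Clock were low, at -9.15% and -7.32% relative to the mean of the others. EFV library 1 deviated the opposite way for 4 of these 5 genes, with Arntl at 10.1%, Clock at 4.85%, Dbp at -3.5% and Per3 at -3.3%. Of these 4, only its Arntl stood apart from the other pools. Control library 2 was at 5.52% for Clock, -4.5% for Dbp and -3.23% for Per3, though at -2.19% for Arntl. The 5 genes were named because EFV library 3 stood out in them, which favours opposite values in other pools. Nr1d1 was at -8.84% in EFV library 1. Control library 1 had 0 of 10 members above the mean of 6, and its largest deviation was 0.075.

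**Figure D3:**
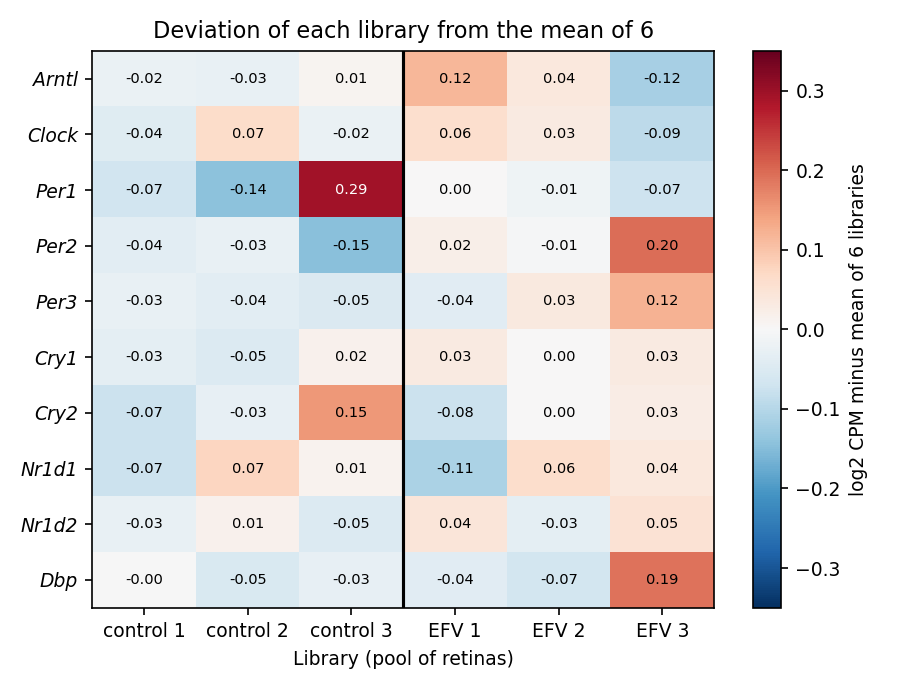
Heatmap of the log2 deviation of each clock gene (rows) from its mean over 6 libraries, by library (columns; red is higher, blue lower, control left of the line). The largest cells are Per1 in control 3 at 0.295, Per2 in EFV 3 at 0.195 and Dbp in EFV 3 at 0.189.

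To describe the phase of the pools, the mean log2 CPM of Arntl and Clock was subtracted from that of 6 genes that peak roughly in antiphase to Arntl (Per1, Per2, Per3, Nr1d1, Nr1d2 and Dbp). This clock contrast was 0.11, 0.07 and 0.13 in control libraries 1 to 3 and 0.01, 0.08 and 0.31 in EFV libraries 1 to 3. The control pools lay close together, and the EFV pools lay on both sides of them. The group means were 0.105 ± 0.031 and 0.134 ± 0.155 (SD, n = 3), a difference of 0.03 against a residual SD of 0.112 between pools of one group. The contrast spanned 0.297 over the 6 libraries, a 1.23-fold difference, and 0.12 without EFV library 3. For Dbp minus Arntl alone the values were 0.72, 0.67 and 0.66 in control and 0.55, 0.60 and 1.01 in EFV libraries, a span of 0.46 or 1.38-fold. No p was computed for either, since both are scores over the chosen genes.

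Not every gene of the contrast followed EFV library 3. In that pool Per1 was at -6.43% relative to the mean of the others, while Nr1d1 was at 3.06% and Nr1d2 at 4.25%. When Ciart, Tef and Hlf were added to the first set and Npas2 to the second, EFV library 3 was still the highest. The lowest became EFV library 2, and the span was 0.23. Npas2 rested on only 85 to 118 counts per library and was lowest in EFV library 1 and highest in EFV library 2. Ciart was lowest in EFV library 2, and the part of single genes in this order was not tested. The sources used here give no series of times from this retina, so a contrast cannot be turned into an hour.

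The level of the Y-linked genes ran opposite to the clock contrast in EFV libraries 1 and 3, and the relation rests on those pools. On the log2 scale, their mean deviation from 6 libraries was -1.002 in EFV library 3, where the contrast was highest, and 0.50 in EFV library 1, where it was lowest, and it lay from 0.07 to 0.17 in the other 4. The part of the make-up of the pools in the contrast was not tested. A fit with the Y-linked level as a covariate, chosen after these values were seen, gave log2 fold changes of 0.02 for Dbp, 0.06 for Arntl and 0.11 for Per2, and 0 of 10 members were called. On the same scale the immediate-early genes were at 0.134 in EFV library 1 and -0.206 in EFV library 3, inside the range of the other pools, and at 0.949 in control library 3.

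**Figure D4:**
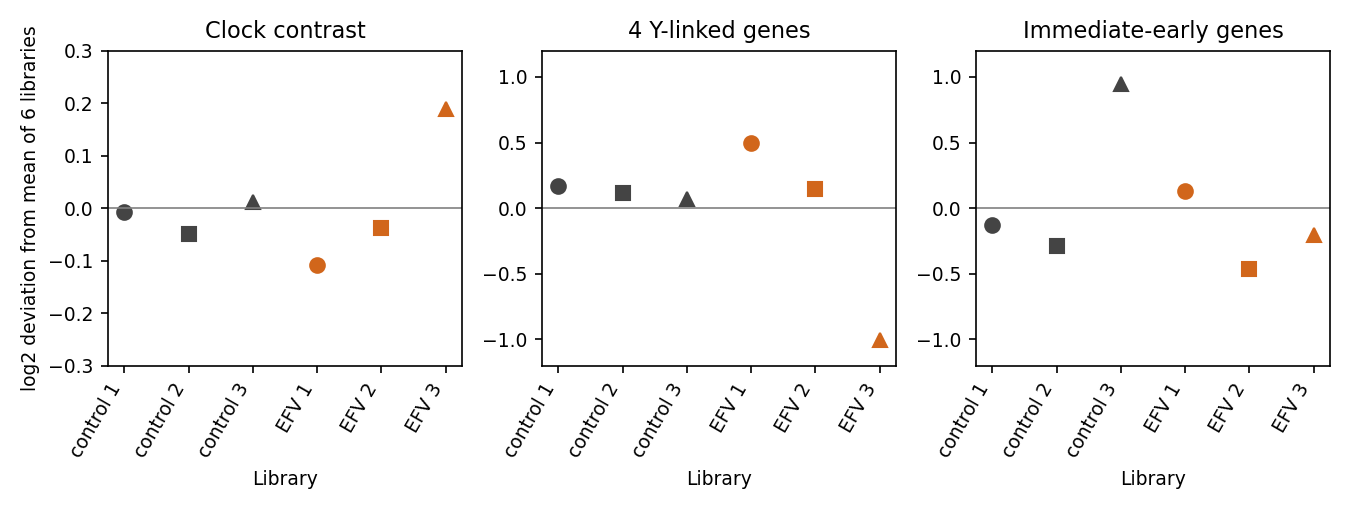
Deviation from the mean of 6 libraries on the log2 scale, by library, of the clock contrast (left; Per1, Per2, Per3, Nr1d1, Nr1d2 and Dbp minus Arntl and Clock), of 4 Y-linked genes (middle) and of the immediate-early genes (right), on axes that differ between the left panel and the others. EFV 3 is the highest at left (0.189) and the lowest in the middle (-1.002), and control 3 is the highest at right (0.949).

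Measured against genes of like abundance, the clock genes were not uniformly variable. The residual SD of log2 CPM around the group means had a median of 0.0842 over the 10 members, beside 0.0685 over the 7971 genes of 500 to 10000 counts, and 7 of the 10 members were above the median of that band. Per1 had the largest, 0.168, at the 96.2 percentile of the band, and Dbp followed with 0.101 at the 80.0 percentile. At the other end were Nr1d2, with 0.0397 at the 13.3 percentile, and Cry1, with 0.0266 at the 4.0 percentile. For Cry1 this was under the 0.0391 that counting error alone gives at its counts. The ratio of the highest to the lowest pool had a median of 1.15 over the members and 1.13 over the band.

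**Figure D5:**
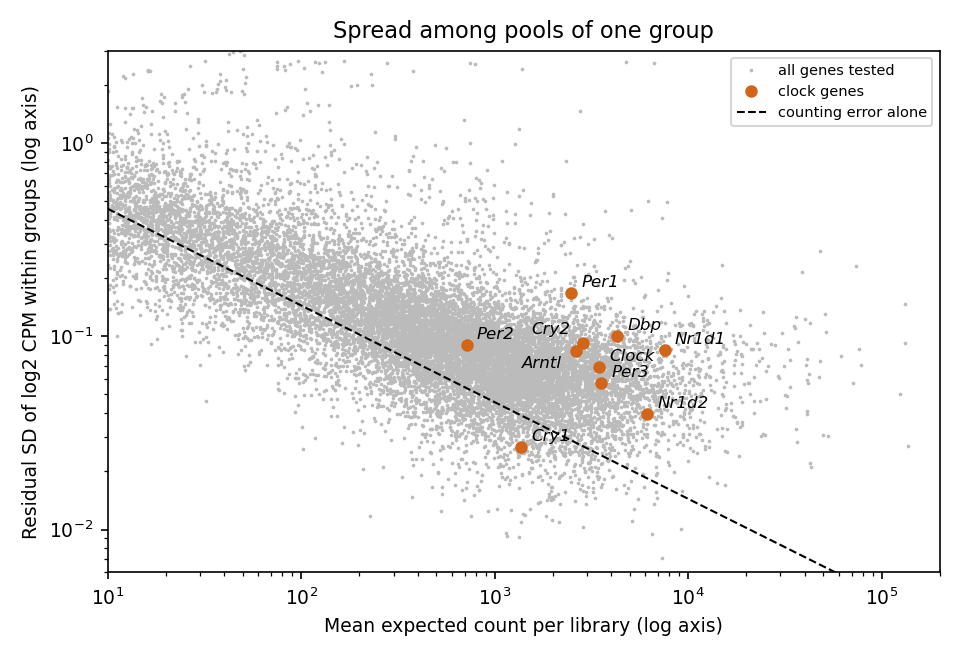
Residual SD of log2 CPM within groups against mean expected count per library, both on log axes, for all genes tested (grey) and the clock genes (orange); the dashed line is counting error alone. Per1 lies in the upper part of the cloud at 0.168 and Cry1 under the dashed line at 0.0266.

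The wider clock pathway was read from lists of other activators and nuclear receptors, clock-controlled factors, kinases and ubiquitin ligases, and genes of light input and rhythmic output. Of 36 genes on these lists, 31 were tested, of which 12 had a fold change above 1 and 19 below it. At the limits of the study 3 of the 31 were called, all lower with EFV, beside 3.01% of all genes, and at an adjusted p of 0.05 edgeR called 0. The 3 called genes all belonged to light input and output. Drd4, the dopamine receptor of photoreceptors, was at 136 ± 3.01 FPKM in control and 127 ± 7.10 in EFV-treated mice (SD, n = 3), a log2 fold change of -0.12 ± 0.05 (edgeR, adjusted p = 0.999). Drd2, the receptor that dopamine neurons use to sense their own release, was at 21.6 ± 2.03 and 19.3 ± 0.360 FPKM (log2 fold change -0.18 ± 0.08; edgeR, adjusted p = 0.999). Opn3, a non-visual opsin, was at 1.497 ± 0.153 and 1.19 ± 0.162 FPKM (log2 fold change -0.44 ± 0.19; edgeR, adjusted p = 0.999). With total count scaling 1 gene of these lists was called, and with limma 0.

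The remaining clock lists held no called gene. Among 5 other activators and nuclear receptors 0 were called, and Npas2, a relative of Clock, was at 0.987 ± 0.032 FPKM in control and 1.05 ± 0.180 in EFV-treated mice. Arntl2, a relative of Arntl, and Rorb, an activator at ROR elements, had log2 fold changes of -0.20 and -0.10 (edgeR, adjusted p = 0.999 for both). Among 9 other clock-controlled factors 0 were called and 5 were highest in control library 3, the pool where Per1 was high. Ciart, a repressor of the CLOCK and ARNTL pair, was at 12.2 ± 1.65 and 11.7 ± 2.04 FPKM, and Nfil3, the repressor that competes with DBP at D-boxes, and Noct had log2 fold changes of -0.08 and -0.08. Among 9 kinases, ubiquitin ligases and related genes 0 were called, and the largest change was that of Fbxl21, -0.17 ± 0.21. Aanat, Opn5 and Mtnr1a were too low to test, with at most 8 counts in a library.

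Light exposure and handling stress can both move Per1, so genes of these responses were read beside it. All 13 immediate-early genes tested had a log2 fold change below 0, and 12 of the 13 were highest in control library 3. Their mean log2 deviation from 6 libraries was 0.949 in that pool. In control libraries 1 and 2 it was -0.125 and -0.287, inside the range of the EFV pools, -0.465 to 0.134. The shared direction therefore rests on 1 pool. At the limits of the study 1 of the 13 was called, beside 3.01% of all genes. This was Fos, with a log2 fold change of -0.9998 ± 0.43 (edgeR, adjusted p = 0.999). The highest value was in control library 3, with 25.97 FPKM of Fos against 5.38 to 9.35 in the other pools. Of 9 glucocorticoid-induced genes tested, 0 were called, and their median change was 0.04 on the log2 scale.

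The genes most like Dbp over the 6 libraries were Kat2a, Gtpbp6, Mapk1ip1l, Preb and Stard6, with Pearson r from 0.986 to 0.997, and those most like Arntl were Gle1, Zfp623, Pak3, Tnks2 and Mga, with r from 0.984 to 0.99. Of 12293 genes compared, 50 had an r of 0.95 or more with Dbp and 56 with Arntl. These profiles rest on 6 points, with EFV library 3 the highest for all 5 genes like Dbp and the lowest for all 5 genes like Arntl. Kat2a, for instance, was at 15.3 FPKM in EFV library 3 and at 13.35 to 13.98 in the others, and Pak3 was at 14.73 FPKM in EFV library 1, at 11.37 in EFV library 3 and at 12.39 to 13.0 in the rest. No clock gene was among the 5 genes nearest to Dbp or to Arntl.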

How the data were processed

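RNA of 6 retinal pools was sequenced after poly-A selection and random priming. The submitters' processing notes name HISAT2 2.0.4, Bowtie2 2.2.5, RSEM 1.2.12 and build mm10. The authors deposited, per library and gene, an expected count from RSEM (not normalized) and an FPKM value, which divides it by gene length and library total; a gene not listed in a library was taken as 0. Strandedness and annotation release are not given in the sources used here. The rows of several members include transcripts that the authors assembled themselves, which can change gene length and so FPKM.

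Expected counts were rounded and fitted with edgeR 4.0.16 (quasi-likelihood, TMM, group as only term, two-sided; R 4.3.3) over all 15537 genes with 10 counts in at least 3 libraries, and adjusted by the Benjamini-Hochberg method. The study's limits, a change of 7% and p of 0.05, were applied to this p, whereas its own test was based on the Poisson distribution. DESeq2 1.42.0, limma 3.58.1 on log2(FPKM + 0.1) and log2(FPKM + 1), other scalings and filters, a replicate block and leaving out each library were alternatives. The covariates of Y-linked and immediate-early genes were added after seeing the data. The edgeR, DESeq2 and limma fits were tested on simulated data (limma on scaled simulated counts). TMM factors were 0.984 to 1.01. Fold changes are EFV over control.

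Members and lists were chosen with earlier results of these data known. The text names all members, Npas2 and Ciart, genes called at the study's limits, up to 3 genes a list by size of change (mean FPKM of at least 1), the 5 genes most like Dbp and Arntl, and overlapping genes on the other strand.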

Additional observations from a re-analysis of the deposited data

How the results depend on the processing

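No member had an adjusted p of 0.05 or less under any scaling, filter, tool, covariate or left-out library, and the median log2 fold change of the members stayed between 0.028 and 0.049. Of 120 fold changes of members under the settings that kept all libraries, 111 kept their direction and their side of the limits. The 9 that reversed were all near zero: Clock was -0.001 with RLE scaling and with the replicate block, 0.000 with DESeq2 and -0.007 with the immediate-early covariate; Nr1d1 was 0.009 with total count scaling and in both limma fits; and Per1 and Cry2 were 0.049 and 0.012 with the immediate-early covariate. Leaving out 1 library at a time, the log2 fold change ran from -0.025 to 0.089 for Arntl, from -0.029 to 0.044 for Clock, from -0.156 to 0.075 for Per1, from 0.078 to 0.179 for Per2, from 0.036 to 0.117 for Per3, from -0.079 to 0.036 for Cry2, from 0.030 to 0.063 for Cry1, from -0.045 to 0.045 for Nr1d1, from 0.024 to 0.064 for Nr1d2 and from -0.025 to 0.105 for Dbp.

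In the same refits the number of members called at the study's limits was 0 to 1 (Per3, without EFV library 1). The number of other clock-related genes called was 0 to 3. Over all genes, these refits called 389 to 576 of the 15381 to 15437 tested. The number of members without overlap was 1 to 3. A group short of 1 library separates more easily, and the share over all genes is not given for these refits, so this rise cannot be read as a result. The number of other clock-related genes called, 3 in the fit reported, was 1 with total count scaling, 0 in both limma fits and 1 with the Y-linked covariate. The span of the clock contrast was 0.120 to 0.297 when 1 library was left out, 0.303 on log2(FPKM + 0.1), 0.338 without Clock, 0.230 with Ciart, Tef, Hlf and Npas2 added and 0.460 for Dbp minus Arntl only. The cause of these changes was not tested.

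Replicate numbers were shared by the groups, but the deviations of same-numbered libraries correlated at 0.125, 0.0832 and 0.0992 over all genes tested and at 0.116, 0.181 and 0.18 over the 6460 genes with a mean log2 CPM above 5. Since not every pair passed 0.1 over all genes tested, the libraries were treated as sharing only a number, and the abundant genes give a different answer. Each library did correlate best with its own number, a hint from the data and not the design. The replicate block gave 514 calls over all genes against 467, and 0 members. For every member but Cry1 the SD that counting error gives was under the residual SD, so the spread between pools, more than depth, limited the precision.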
